A study of Arabidopsis thaliana with 14 samples.

Results

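In seeds of Arabidopsis thaliana, 43 genes known by a locus code alone were expressed in the embryo, in 2 parts of the endosperm and in both parts of the seed coat, but were low in the chalazal endosperm. They were chosen by a rule on array signal. The lowest mean of the embryo proper, micropylar endosperm, cellularized endosperm, chalazal seed coat and general seed coat had to be at least 300. It also had to be at least 8 times the chalazal endosperm mean, where a mean under 16 was set to 16. A gene counted only if its probe set, the group of short probes that measures it, named 1 gene by a locus code and not by a symbol. These 43 were drawn from 11933 such probe sets and 22746 probe sets in all. The same limits without the naming condition were met by 109 probe sets, of which 12 carried a symbol, 1 several genes and 53 no gene.

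The samples were 14 arrays of ecotype Ws-0, 2 biological replicates for each of the 6 compartments and for whole seeds, all at the linear-cotyledon stage with embryos 175 ± 11 µm long. Siliques of 1.6 to 1.9 cm came from plants 38 to 46 days old. Tissue was fixed, embedded in paraffin, sectioned and cut out with a laser, and 2 to 5 ng of RNA per sample was amplified before hybridisation to an Affymetrix ATH1 array. No genotype or treatment differed between groups, and which plants gave each replicate was not stated, so the p-values cover the spread among these arrays, which may be technical. The micropylar arrays are described as whole seeds in 1 label field, but their title and source give micropylar endosperm, which was followed here.

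The endosperm is the tissue that nourishes the embryo, and in Arabidopsis it forms distinct regions. The micropylar part surrounds the young embryo, the part along the seed's periphery becomes divided into cells (here the cellularized endosperm), and the chalazal part forms a multinucleate cyst above the end of the mother plant's vascular strand. The seed coat is maternal tissue. The platform's table gives the 43 genes no symbol, and the RefSeq gene table of assembly TAIR10.1, which holds all 43 as protein-coding genes, gives 0 of them one. No function is therefore given here, and the genes are ordered by the compartment in which they were highest. Signal of different probe sets depends on the probes, so each gene is compared with itself across compartments.

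The tissue labels were checked with marker genes. Only 2 of 10 embryo markers, 3 of 13 endosperm markers, 2 of 10 seed coat markers and 0 of 5 phloem markers had a probe set naming them alone. The summed embryo markers reached 2724 to 2863 on the embryo arrays and 53.3 to 90.8 on the chalazal endosperm arrays. The summed seed coat markers, BAN and DFR of tannin synthesis, reached 14628 to 15576 on the chalazal coat arrays, 7185 to 8436 on those of the general coat, 1006 to 1047 on the chalazal endosperm arrays and 720 to 917 on the micropylar endosperm arrays, with 18.2 to 168 in the embryo and the cellularized endosperm. The summed endosperm markers ran from 148 to 181 in the chalazal endosperm and from 17.8 to 125 in the other compartments, and MPC, with a mean of 136, carried that level while AGL62 and IKU2 were at 10.3 and 18.3. The endosperm label of the other 2 parts was thus not borne out by a marker with clear signal.

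Low signal in the chalazal endosperm was the criterion of choice, so the values in this paragraph are a description without a test. Over the 43 genes the chalazal endosperm mean had a median of 44.4 and ran from 14.7 to 251, while the lowest of the 5 other means had a median of 609 and ran from 304 to 2483. Silent is too strong a word for the whole group. Both chalazal endosperm arrays were below their array median, which was 108 and 126, for 31 genes, and both were above it for 3. Only 1 gene had a mean below 16. Whether a signal of this size is distinct from background was not given by the deposited values, and in dissected tissue fewer expressing cells and less RNA per cell cannot be told apart.

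**Figure D1:**
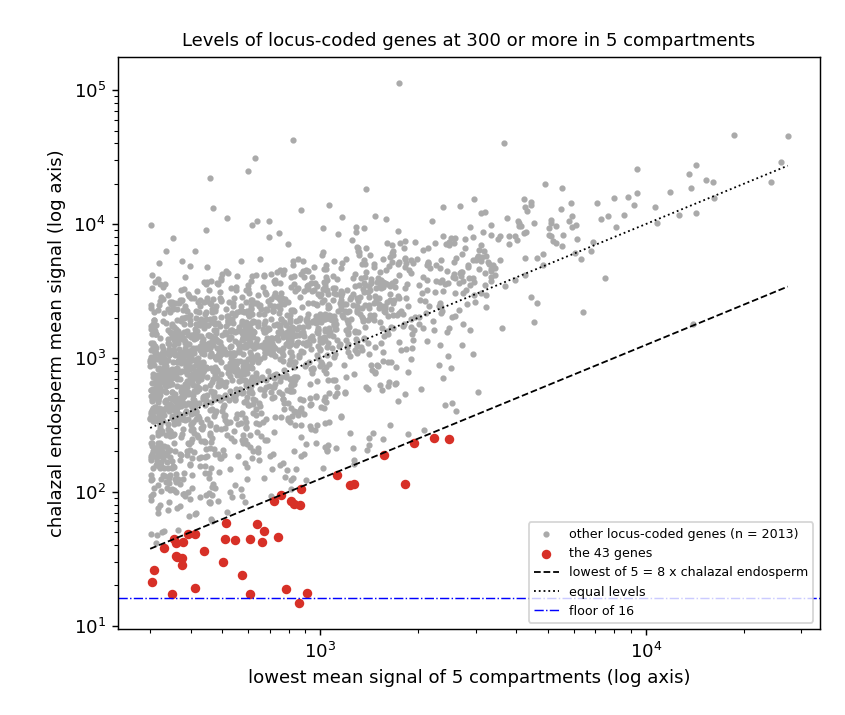
Each point is a probe set with 1 locus-coded gene whose lowest mean over 5 compartments was at least 300. The horizontal axis shows that lowest mean and the vertical axis the chalazal endosperm mean, both as array signal on log axes. The 43 genes (red) lie below the dashed line of an 8-fold difference by construction. Their chalazal endosperm means ran from 14.7 to 251, a range that also depends on the probes of each probe set.

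The 4 genes with the largest ratios were AT5G03660 (53.7), AT3G26720 (52.0), AT4G24290 (41.4) and AT3G05910 (35.5). Values are given here and below for replicates 1 and 2 in that order. AT5G03660 gave 851 and 868 in the embryo proper, 1016 and 909 in the micropylar endosperm, 2354 and 2580 in the cellularized endosperm, 1356 and 1413 in the chalazal seed coat, 1183 and 808 in the general seed coat, 9.58 and 19.8 in the chalazal endosperm, and 444 and 371 in whole seeds. It was highest in the cellularized endosperm, where both arrays exceeded all other arrays, and it was lower in whole seeds than in any of the 5 compartments. AT3G26720 gave 1073 and 1346 in the embryo proper, 1156 and 669 in the micropylar endosperm, 1425 and 1146 in the cellularized endosperm, 584 and 2180 in the chalazal seed coat, 644 and 1550 in the general seed coat, 10.3 and 24.8 in the chalazal endosperm, and 565 and 584 in whole seeds. Its 5 high compartments overlapped one another. AT4G24290 gave 719 and 1022 in the embryo proper, 648 and 944 in the micropylar endosperm, 567 and 999 in the cellularized endosperm, 1245 and 1437 in the chalazal seed coat, 927 and 827 in the general seed coat, 30 and 7.84 in the chalazal endosperm, and 1344 and 1010 in whole seeds. Its chalazal seed coat was above the other 4 of the 5 compartments on both arrays. The difference from the general seed coat was not called in the test described below (log2 change 0.60, limma adjusted p = 0.455). Its chalazal endosperm was below all other arrays, which the rule favoured. AT3G05910 gave 798 and 1712 in the embryo proper, 2088 and 1919 in the micropylar endosperm, 627 and 1132 in the cellularized endosperm, 320 and 899 in the chalazal seed coat, 1455 and 1346 in the general seed coat, 21.7 and 12.6 in the chalazal endosperm, and 891 and 1194 in whole seeds.

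The other 8 of the 12 largest ratios were those of AT1G72410 (24.2), AT2G04280 (21.4), AT1G12330 (20.2), AT1G10650 (16.9), AT2G38370 (16.1), AT1G60610 (15.96), AT3G04550 (15.6) and AT4G26790 (14.3). The median ratio was 11.1. Just inside the limit of 8 were AT1G47340 (8.02), AT1G61930 (8.02) and AT5G40970 (8.14), and just outside were AT5G58090 (7.85), AT2G22080 (7.81) and AT5G16730 (7.73). AT2G22080 shows that a ratio near the limit need not mean a low level, with a chalazal endosperm mean of 1792 and a lowest other mean of 13990. At the limit of 300, AT4G26790 (304), AT1G43580 (309) and AT4G10300 (330) were just inside, and AT5G48370 (299), AT2G25800 (296) and AT3G51950 (282) just outside.

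AT5G24490 gave 13942 and 15105 in the embryo proper, 3508 and 4613 in the micropylar endosperm, 9750 and 5837 in the cellularized endosperm, 1786 and 2692 in the chalazal seed coat, 3466 and 4052 in the general seed coat, 391 and 110 in the chalazal endosperm, and 2922 and 3021 in whole seeds. Its embryo arrays stood above all others, and both chalazal endosperm arrays were lowest, at a mean of 251. Of the 10 genes with the highest lowest-of-5 mean, AT5G50740 (2483), AT5G24490 (2239), AT2G18630 (1944), AT1G60610 (1823) and AT3G57880 (1572) led. Next were AT3G12020 (1270), AT1G21560 (1232), AT5G01090 (1125), AT3G26720 (913) and AT3G50210 (875). This orders the signal of probe sets and not the levels of the genes. Their ratios were 8.39 to 11.1 for 8 of the 10, below the median of the 43, with AT1G60610 at 15.96 and AT3G26720 at 52.0.

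Between the 2 chalazal endosperm arrays, 24 of 43 genes differed by less than 2-fold after adding 16 to each signal, and 24 of 43 were higher on replicate 1. Across the 43 genes, which are not independent replicates, the log2 signals of these 2 arrays correlated with r = 0.348. For the same genes r was higher in every other group, at least 0.634 (chalazal coat) and at most 0.909 (embryo). Over all probe sets r was 0.882 for the chalazal endosperm, within the 0.871 to 0.925 of the 7 groups. The rule limited the values of the 43 genes in this compartment, and whether that lowered their r was not tested. AT1G61930, at 85.1 and 3.78, AT1G44760, at 4.89 and 109, and AT2G20230, at 6.39 and 111, were among the most unequal and were picked after their values were seen. Taking only one of the arrays moved the membership more than the count. Without chalazal endosperm replicate 1 the rule found 60 genes, of which 33 were among the 43, and without replicate 2 it found 58, of which 30 were.

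Both chalazal endosperm arrays lay below all 10 arrays of the 5 other compartments for each of the 43 genes. This held for 7.97% of all probe sets and for 18.2% of the 4728 whose lowest of 5 was at least 300, and since the rule used these values nothing is read from it. With limma, at an adjusted p below 0.05 and at least 2-fold, 22.9% of the 15951 probe sets tested were lower in the chalazal endosperm. The comparison was with the mean of the other 5 compartments. The share that was higher was not counted, and the median log2 change over all probe sets tested was -0.12. With another compartment put in the place of the chalazal endosperm, the same rule found 21 locus-coded genes for the embryo proper, 2 for the cellularized endosperm and 0 each for the micropylar endosperm, the chalazal seed coat and the general seed coat. The signal ratio of control probe sets near the 3′ and 5′ ends of a transcript is a rough guide to RNA integrity. The RNA was amplified, so the ratio may not reflect integrity alone. For GAPDH it was 13.65 and 8.34 in chalazal endosperm and 2.72 to 7.87 elsewhere. For a second pair of GAPDH probe sets it was 1.73 and 1.36, within the range of 0.85 to 1.91 over all arrays. The ubiquitin ratio was 8.63 and 8.72 in chalazal endosperm and 5.36 to 12.02 elsewhere, and the actin ratio 14.79 and 9.01 against 9.69 to 36.81, so that 1 of the 4 controls set these arrays above the rest. The part of RNA integrity or of amplification in the low signals was not tested.

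**Figure D2:**
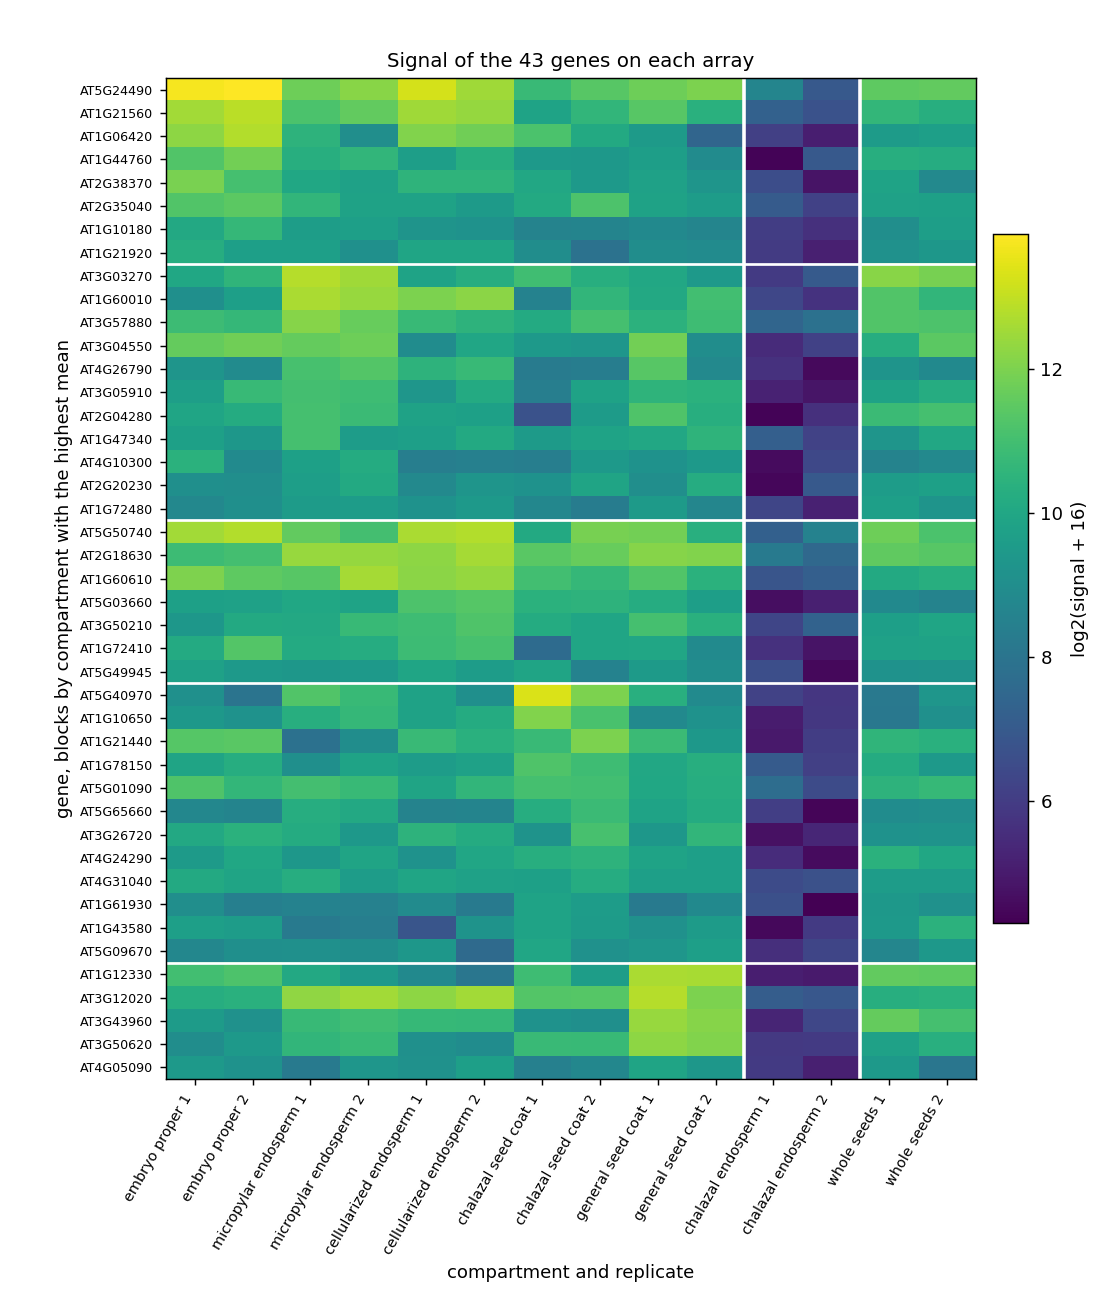
Rows are the 43 genes in blocks by the compartment of their highest mean (from top: embryo proper, micropylar endosperm, cellularized endosperm, chalazal seed coat, general seed coat), columns are the 14 arrays, and colour shows log2(signal + 16). In each row the 2 chalazal endosperm columns are darker than all other columns, with shades that vary among genes and between the replicates. Whole seeds on the right resemble the other compartments in level.

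For 2 of the 43 genes a second probe set named the same gene, which the rule had not chosen, although it was read on the same arrays. The first, AT1G72410, gave 1119 and 2550 in the embryo proper, 1126 and 1179 in the micropylar endosperm, 1857 and 2200 in the cellularized endosperm, 185 and 965 in the chalazal seed coat, 978 and 454 in the general seed coat, 35.3 and 12.3 in the chalazal endosperm, and 864 and 891 in whole seeds. Its second probe set gave 273 and 631 in the embryo proper, 1082 and 394 in the micropylar endosperm, 739 and 545 in the cellularized endosperm, 72.4 and 127 in the chalazal seed coat, 168 and 329 in the general seed coat, 2.75 and 6.09 in the chalazal endosperm, and 516 and 216 in whole seeds. On both probe sets the chalazal endosperm arrays were the lowest and the chalazal seed coat had the next lowest mean. The second probe set met neither limit of the rule, with a lowest of 5 of 99.9 and a ratio of 6.24. Its chalazal endosperm mean was 4.42, and the rule replaced so low a mean by its fixed minimum. The ratio missed its limit for that reason alone, so 6.24 understates the difference between these means.

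The second gene was AT5G50740, for which the chosen probe set gave 5934 and 7002 in the embryo proper, 3050 and 2053 in the micropylar endosperm, 6521 and 6954 in the cellularized endosperm, 1104 and 3863 in the chalazal seed coat, 3702 and 1277 in the general seed coat, 137 and 359 in the chalazal endosperm, and 3457 and 2296 in whole seeds. The second gave 11732 and 12360 in the embryo proper, 3703 and 3159 in the micropylar endosperm, 13837 and 9295 in the cellularized endosperm, 3629 and 2547 in the chalazal seed coat, 2775 and 1849 in the general seed coat, 472 and 1292 in the chalazal endosperm, and 3940 and 3185 in whole seeds. Here the chalazal endosperm was again lowest, but its mean was 882 ± 580 (SD, n = 2) and the lowest of the 5 others was 2.62 times as high, against 10 times on the chosen probe set. The second probe set of AT5G50740 thus missed the limit of 8, so neither gene was chosen by both of its probe sets.

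**Figure D3:**
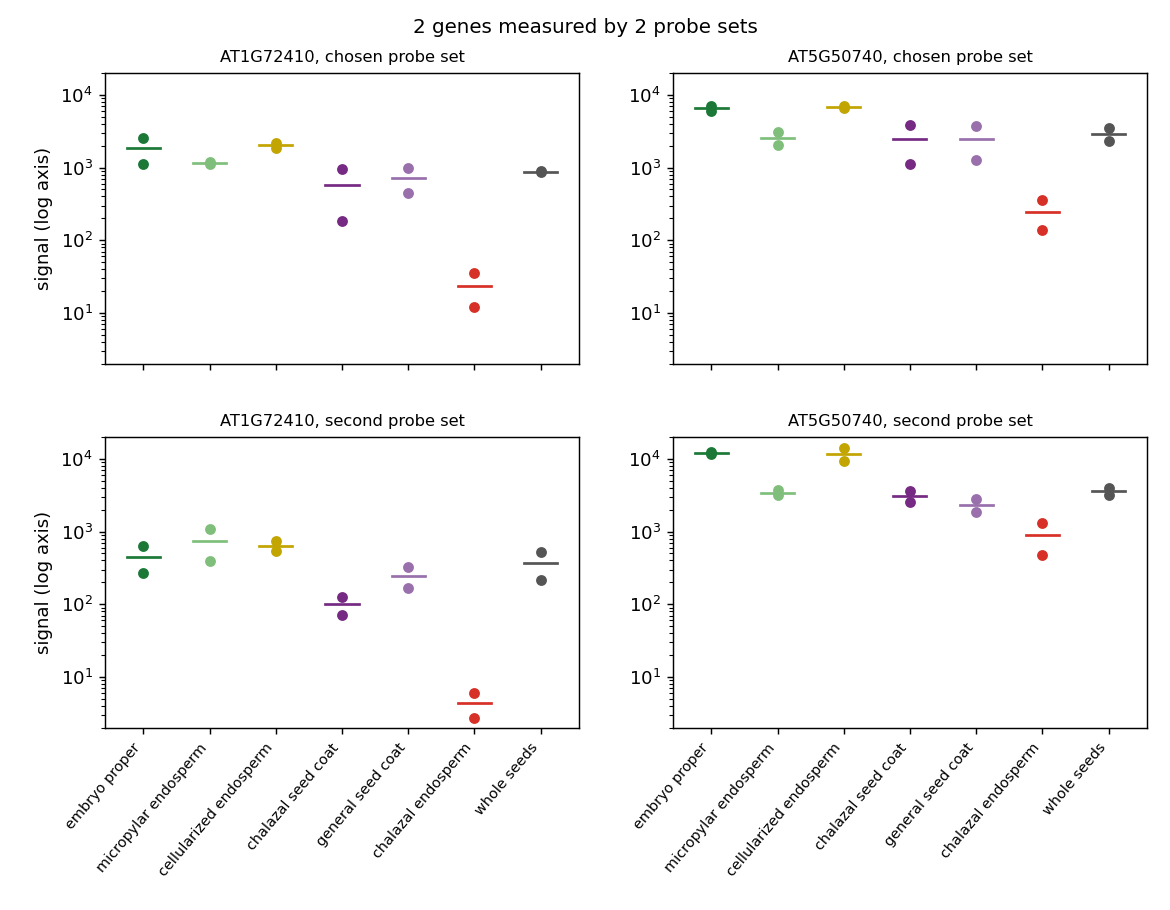
Array signal (log axis) in each compartment and in whole seeds for AT1G72410 and AT5G50740, with the probe set chosen by the rule above and the second probe set of the same gene below. Points are single arrays and bars the mean of 2. The chalazal endosperm (red) is lowest in all 4 panels, at a mean of 4.42 on the second probe set of AT1G72410 and 882 on that of AT5G50740.

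Whole seeds were not used by the rule, although they contain the tissues that were, so their levels are also given as a description. In whole seeds 40 of 43 genes were at 300 or more on both arrays. This was so for 33.3% of all probe sets and for 92.8% of those whose lowest of 5 was at least 300, so the count among the genes lies near the share of probe sets chosen for level alone. For all 43 genes both whole-seed arrays were above both chalazal endosperm arrays. The rule favoured this by choosing low chalazal endosperm signal, and no share of all probe sets was counted, so nothing is read from it. The whole-seed mean was below the mean of the 5 compartments for 33 genes (76.7%), where 61.3% of probe sets with a lowest of 5 of at least 300 showed the same. The median ratio of whole seeds to the mean of 5 was 0.792 for the genes and 0.879 for those probe sets.

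The whole-seed mean fell outside the range of the 5 compartments for 9 genes. It was below the lowest compartment for 7 of them, or 16.3% against 18.6% of probe sets chosen for level alone. AT5G03660 was the clearest, at 407 ± 51.8 (SD, n = 2) against a lowest compartment mean of 860. AT3G26720 was at 575 against 913, AT1G60610 at 1181 against 1823, AT1G10650 at 405 ± 195 against 503 and AT2G38370 at 672 ± 333 against 739, where the gap was smaller than the SD of 2 arrays. AT5G49945 (578 against 609) and AT4G31040 (766 against 831) completed the 7. The 2 genes above the highest compartment were AT1G43580, at 1039 ± 483 against 824, and AT2G04280, at 1961 ± 203 against 1957, and both gaps were smaller than the SD. AT5G40970, highest in the chalazal seed coat, had the lowest ratio of whole seeds to the mean of 5, at 0.201, and AT3G03270, highest in the micropylar endosperm, the highest, at 1.89.

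**Figure D4:**
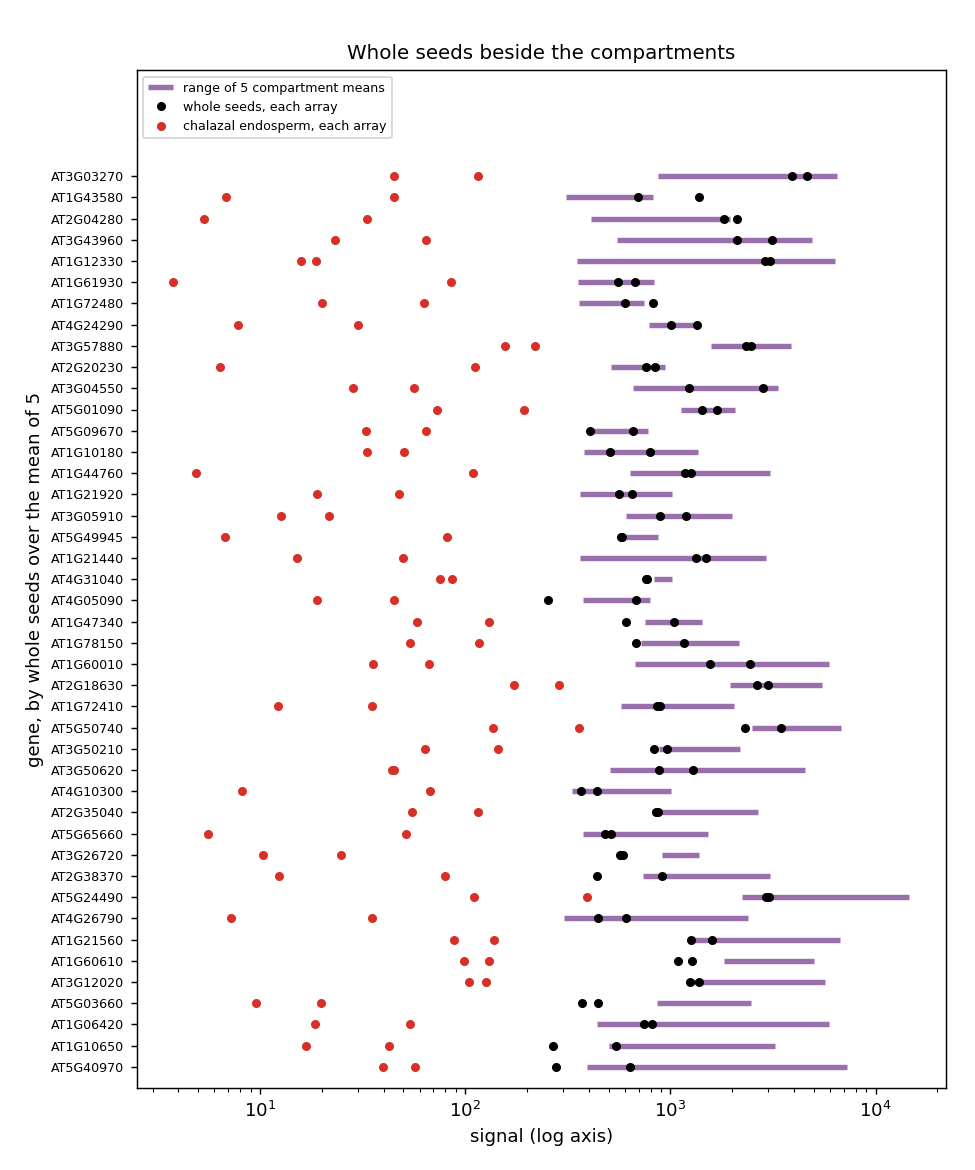
For each of the 43 genes the purple bar spans the lowest to the highest of the 5 compartment means, black points are the 2 whole-seed arrays and red points the 2 chalazal endosperm arrays, as array signal on a log axis. Genes are ordered by the ratio of whole seeds to the mean of 5, from 0.201 at the bottom to 1.89 at the top. Every black point lies to the right of the red points of its gene, which the choice of genes favoured.

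The rule did not use which of the 5 other compartments was highest, and the 43 genes shared no single pattern there. The mean was highest in the chalazal seed coat for 12 genes, the micropylar endosperm for 11, the embryo proper for 8, the cellularized endosperm for 7 and the general seed coat for 5. Among the 4728 probe sets with a lowest of 5 of at least 300 these shares were 24.7%, 16.5%, 25.3%, 19.6% and 14.0%, against 27.9%, 25.6%, 18.6%, 16.3% and 11.6% of the genes. For 21 genes (48.8%) both arrays of the highest compartment exceeded the 8 arrays of the other 4, as for 44.8% of those probe sets. For 10 genes (23.3%) both arrays of the lowest of the 5 lay below the other 8, where 33.7% of those probe sets did so. The highest mean was 3.28 times the lowest at the median, against 2.84 times for those probe sets, and ran from 1.22 in AT4G31040, picked for this after its values were seen, to 18.4 in AT5G40970.

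Of the 8 genes highest in the embryo proper, 7 had both embryo arrays above the 8 arrays of the other 4 compartments. They were AT5G24490, AT1G21560, AT1G06420, AT1G44760, AT2G38370, AT2G35040 and a seventh outside the naming rule, AT1G10180. The share among all probe sets highest in the same compartment was not counted, here or for the other 4 compartments below. These counts by compartment are therefore a description, and no contrast between compartments is read from them. AT1G21560 gave 5946 and 7526 in the embryo proper, 2281 and 3083 in the micropylar endosperm, 5801 and 5242 in the cellularized endosperm, 915 and 1550 in the chalazal seed coat, 2662 and 1328 in the general seed coat, 138 and 88.6 in the chalazal endosperm, and 1589 and 1263 in whole seeds. AT1G06420 gave 4855 and 6959 in the embryo proper, 1441 and 515 in the micropylar endosperm, 4251 and 3547 in the cellularized endosperm, 2286 and 1096 in the chalazal seed coat, 721 and 154 in the general seed coat, 53.9 and 18.6 in the chalazal endosperm, and 745 and 812 in whole seeds. Both had the cellularized endosperm second, and AT1G06420 had a second low point in the general seed coat.

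In the micropylar endosperm 5 of 11 genes had both arrays above the other 8, among them AT3G03270, AT1G60010, AT3G57880 and AT3G05910. AT3G03270 gave 1013 and 1522 in the embryo proper, 7127 and 5834 in the micropylar endosperm, 903 and 1219 in the cellularized endosperm, 1937 and 1256 in the chalazal seed coat, 1032 and 700 in the general seed coat, 45.1 and 115 in the chalazal endosperm, and 4623 and 3909 in whole seeds. It stood far above the cellularized endosperm, its neighbour, while AT1G60010 was high in both. AT1G60010 gave 530 and 814 in the embryo proper, 6467 and 5415 in the micropylar endosperm, 4068 and 4775 in the cellularized endosperm, 355 and 1539 in the chalazal seed coat, 1058 and 2006 in the general seed coat, 66.2 and 35.7 in the chalazal endosperm, and 2454 and 1554 in whole seeds. In the cellularized endosperm 1 of 7 genes, AT5G03660, did not overlap the other compartments.

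In the chalazal seed coat, which borders the chalazal endosperm, 5 of 12 genes had both arrays above the other 8, among them AT5G40970, AT1G10650, AT4G24290 and AT1G61930. AT5G40970 gave 545 and 240 in the embryo proper, 2507 and 1717 in the micropylar endosperm, 883 and 519 in the cellularized endosperm, 10459 and 4017 in the chalazal seed coat, 1304 and 459 in the general seed coat, 56.7 and 39.8 in the chalazal endosperm, and 276 and 635 in whole seeds. AT1G10650 gave 658 and 571 in the embryo proper, 1262 and 1621 in the micropylar endosperm, 884 and 1158 in the cellularized endosperm, 4231 and 2250 in the chalazal seed coat, 443 and 562 in the general seed coat, 16.8 and 42.6 in the chalazal endosperm, and 267 and 544 in whole seeds. Both genes were next highest in the micropylar endosperm, and their 2 chalazal seed coat arrays differed from each other by more than those of the micropylar endosperm.

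In the general seed coat 3 of 5 genes did not overlap the other compartments, AT1G12330, AT3G43960 and AT3G50620. AT1G12330 gave 2020 and 2330 in the embryo proper, 1060 and 711 in the micropylar endosperm, 447 and 254 in the cellularized endosperm, 1926 and 790 in the chalazal seed coat, 6415 and 6269 in the general seed coat, 18.7 and 15.9 in the chalazal endosperm, and 3055 and 2892 in whole seeds. AT3G43960 gave 734 and 555 in the embryo proper, 1703 and 1952 in the micropylar endosperm, 1664 and 1627 in the cellularized endosperm, 572 and 519 in the chalazal seed coat, 5357 and 4470 in the general seed coat, 23.3 and 64.6 in the chalazal endosperm, and 3141 and 2100 in whole seeds. AT3G50620 gave 494 and 706 in the embryo proper, 1549 and 1733 in the micropylar endosperm, 540 and 479 in the cellularized endosperm, 1760 and 1734 in the chalazal seed coat, 4832 and 4256 in the general seed coat, 44 and 44.8 in the chalazal endosperm, and 874 and 1292 in whole seeds. In all 3 the general seed coat was well above the chalazal seed coat.

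Differences among the 5 compartments were tested in 4 comparisons with limma over all 15951 probe sets that passed a filter on low signal, among them all 43 genes. A gene was called at an adjusted p below 0.05 and a change of at least 2-fold, and changes are on the log2(signal + 16) scale. Of the 43 genes, 20 were called in 0 of the 4 comparisons, 13 in 1, 6 in 2, 3 in 3 and 1 in all 4. The last was AT1G06420. The same counts were not made over all probe sets, so nothing about the genes as a group is read from them. The comparisons share groups, so they are not independent of one another.

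The maternal seed coat was set against the filial tissues, the embryo proper with the micropylar and cellularized endosperm. In the coat 4 genes were higher and 11 lower. The shares of 9.3% and 25.6% compare with 17.5% and 16.4% of all probe sets tested and with 9.48% and 15.6% of those whose lowest of 5 was at least 300. AT3G50620 rose by 1.81 (SE 0.25, adjusted p = 1.72e-05), AT1G12330 by 1.68 (SE 0.29, adjusted p = 0.000156), AT5G40970 by 1.47 (SE 0.39, adjusted p = 0.00581) and AT5G65660 by 1.13 (SE 0.34, adjusted p = 0.0121). AT1G06420 fell by 1.85 (SE 0.40, adjusted p = 0.00122) and AT1G21560 fell by 1.61 (SE 0.26, adjusted p = 6.83e-05). AT1G72410 (-1.53), AT5G24490 (-1.40) and AT1G44760 (-1.30) were also lower in the coat. The median change of the genes was -0.12, against -0.01 over all probe sets tested. It lay near the -0.11 of probe sets whose lowest of 5 was at least 300. AT5G40970 was no longer called when general seed coat replicate 1 was left out (adjusted p = 0.0511). The same befell AT5G65660 without chalazal seed coat replicate 2 (0.0547) and AT1G44760 without general seed coat replicate 2 (0.0677), while AT1G72410 fell short of 2-fold without chalazal seed coat replicate 1 (-0.96). Arrays scaled to equal medians, which shifts the median of all probe sets by -0.17, ended the call of AT5G65660, as its change fell under 2-fold. A pseudocount of 1 also ended the calls of AT5G65660 (0.0578) and AT1G44760 (0.0781).

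The embryo proper was compared with the micropylar and cellularized endosperm combined. In the embryo 5 genes were higher and 6 lower, shares of 11.6% and 14.0%. Of all probe sets 8.31% were higher and 8.76% lower, and of those with a lowest of 5 of at least 300, 8.67% and 9.62%. AT1G12330 rose by 1.97 (SE 0.39, adjusted p = 0.00174), AT1G21440 by 1.87 (SE 0.48, adjusted p = 0.0108), and AT1G06420, AT2G35040 and AT5G24490 by 1.65 to 1.39. AT1G60010 fell by 2.93 (SE 0.47, adjusted p = 0.000281) and AT3G12020 fell by 2.08 (SE 0.29, adjusted p = 7.88e-05). AT4G26790 (-1.81), AT5G40970 (-1.67) and AT2G18630 (-1.46) were lower as well. AT3G12020 gave 1222 and 1317 in the embryo proper, 4943 and 5939 in the micropylar endosperm and 4852 and 5960 in the cellularized endosperm, so that the groups did not overlap. The direction of the group as a whole was small, with a median of 0.13 against 0.04 over all probe sets tested. Over probe sets with a lowest of 5 of at least 300 the median was -0.03. With equal medians 3 were higher and 7 lower.

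Several of these calls ended when 1 array was left out. The 6 genes below that lost theirs without either embryo array kept changes of at least 1.10 in size under all 23 alternatives. Leaving out 1 array leaves a less precise group mean, which can by itself reduce the number of calls. There were 5 without embryo proper replicate 1, 4 without embryo proper replicate 2 and 7 without micropylar endosperm replicate 2, against 11 with all arrays. The calls of AT1G21440 (adjusted p = 0.0879 and 0.1), AT1G06420 (0.127 and 0.284), AT2G35040 (0.104 and 0.154), AT5G24490 (0.093 and 0.121), AT4G26790 (0.118 and 0.213) and AT5G40970 (0.0516 and 0.368) ended without embryo proper replicate 1 and without replicate 2. Of these 6, AT2G35040 lost its call without micropylar endosperm replicate 2 as well (0.0689), AT5G24490 without cellularized endosperm replicate 2 (0.0522) and AT5G40970 without cellularized endosperm replicate 1 (0.0934) or either micropylar array (0.0984 and 0.0508). AT4G26790 lost it without any 1 of the 4 endosperm arrays (adjusted p up to 0.0787), and AT1G06420 without either cellularized array (0.0652 and 0.0922), micropylar endosperm replicate 2 (0.14) or either whole-seed array (0.0508 and 0.051). Without the trend the calls of AT1G06420 (0.101), AT5G24490 (0.0692), AT4G26790 (0.069) and AT5G40970 (0.0809) ended. A pseudocount of 1 ended those of AT1G06420 (0.0695) and AT4G26790 (0.0679), equal medians those of AT1G06420 (0.0694) and AT2G35040 (0.0513), and quantile normalization that of AT1G06420 (0.0649). The calls of AT1G12330, AT1G60010, AT3G12020 and AT2G18630 held under all 23 alternatives.

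The 2 parts of the seed coat were compared because the chalazal seed coat borders the chalazal endosperm. In the chalazal seed coat 3 genes were higher and 5 lower than in the general seed coat, shares of 6.98% and 11.6%. Of all probe sets 6.29% were higher and 8.32% lower, and of those with a lowest of 5 of at least 300, 6.83% and 8.04%. AT5G40970 rose by 3.04 (SE 0.60, adjusted p = 0.00209), AT1G10650 by 2.59 (SE 0.49, adjusted p = 0.0015) and AT1G06420 by 2.17 (SE 0.62, adjusted p = 0.0237). AT3G43960 fell by 3.13 (SE 0.41, adjusted p = 7.05e-05), AT2G04280 fell by 2.63 (SE 0.67, adjusted p = 0.0119) and AT1G12330 fell by 2.35 (SE 0.45, adjusted p = 0.00154). AT3G50620 (-1.37) and AT3G12020 (-1.06) were also lower. The genes' median was -0.08, against -0.05 over all probe sets and 0.02 over those with a lowest of 5 of at least 300. With equal medians 3 were higher and 3 lower, and the genes' median became 0.01.

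In the same comparison there were 4 calls without chalazal seed coat replicate 1 and 5 without general seed coat replicate 1, against 8 with all arrays. Without chalazal seed coat replicate 1, AT1G06420 (adjusted p = 0.181), AT2G04280 (0.187), AT3G50620 (0.0754) and AT3G12020 (0.116) lost their calls. AT2G04280 gave 90 and 732 in the chalazal seed coat against 2403 and 1238 in the general seed coat. Without general seed coat replicate 1 the calls of AT2G04280 (0.119), AT3G50620 (0.121) and AT3G12020 (0.34) ended, and without replicate 2 those of AT1G06420 (0.311) and AT3G50620 (0.0756). Without chalazal seed coat replicate 2 the adjusted p of AT3G50620 was 0.0808 and that of AT3G12020 was 0.113. AT3G12020 was lost under 14 of 23 alternatives, among them leaving out any 1 array of the embryo proper, the micropylar or cellularized endosperm or whole seeds (adjusted p of 0.0505 to 0.0554). Equal medians ended the calls of AT3G50620 (0.0512) and AT3G12020 (0.0987), the fit without the trend those of AT1G06420 (0.0736) and AT3G12020 (0.114), and testing without a filter that of AT3G12020 (0.0547).

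The micropylar endosperm was compared with the cellularized endosperm as the 2 endosperm parts in which the genes had signal. In the micropylar part 2 genes were higher and 2 lower, 4.65% each. Of all probe sets 4.26% were higher and 2.31% lower, and of those with a lowest of 5 of at least 300, 3.7% and 4.06%. AT3G03270 rose by 2.60 (SE 0.42, adjusted p = 0.00144) and AT3G50620 by 1.66 (SE 0.39, adjusted p = 0.0158). AT1G06420 fell by 2.15 (SE 0.62, adjusted p = 0.0443) and AT1G21440 fell by 2.15 (SE 0.55, adjusted p = 0.0246). AT1G21440 gave 221 and 502 in the micropylar endosperm and 1779 and 1326 in the cellularized endosperm, and stood at 2617 and 2751 in the embryo proper. The genes' median was 0.24, against 0.08 over all probe sets and -0.08 over those with a lowest of 5 of at least 300. It turned to -0.07 with equal medians, which shift the median of all probe sets by -0.28. Calls were then 1 higher and 3 lower, and with quantile normalization 3 higher and 1 lower.

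AT3G03270 kept its call under all 23 alternatives. There was 1 call without cellularized endosperm replicate 1 or 2 or without micropylar endosperm replicate 1, and there were 2 without micropylar endosperm replicate 2. Without chalazal endosperm replicate 1 or 2, which enter only the shared estimate of the spread, there were 8. The call of AT3G50620 ended without any 1 of the 4 arrays compared (adjusted p of 0.0636 to 0.113). That of AT1G06420 ended without any 1 of them (0.0605 to 0.359) and without any 1 array of the embryo proper or whole seeds (0.0577 to 0.0645), and that of AT1G21440 without either cellularized array (0.154 and 0.0796) and without micropylar endosperm replicate 1 (0.259). Equal medians ended the call of AT3G50620 (0.0611), and the fit without the trend ended those of AT1G06420 (0.124) and AT1G21440 (0.0795). AT1G06420 was lost with a pseudocount of 1 (0.0804) and with quantile normalization (0.0723) too.

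**Figure D5:**
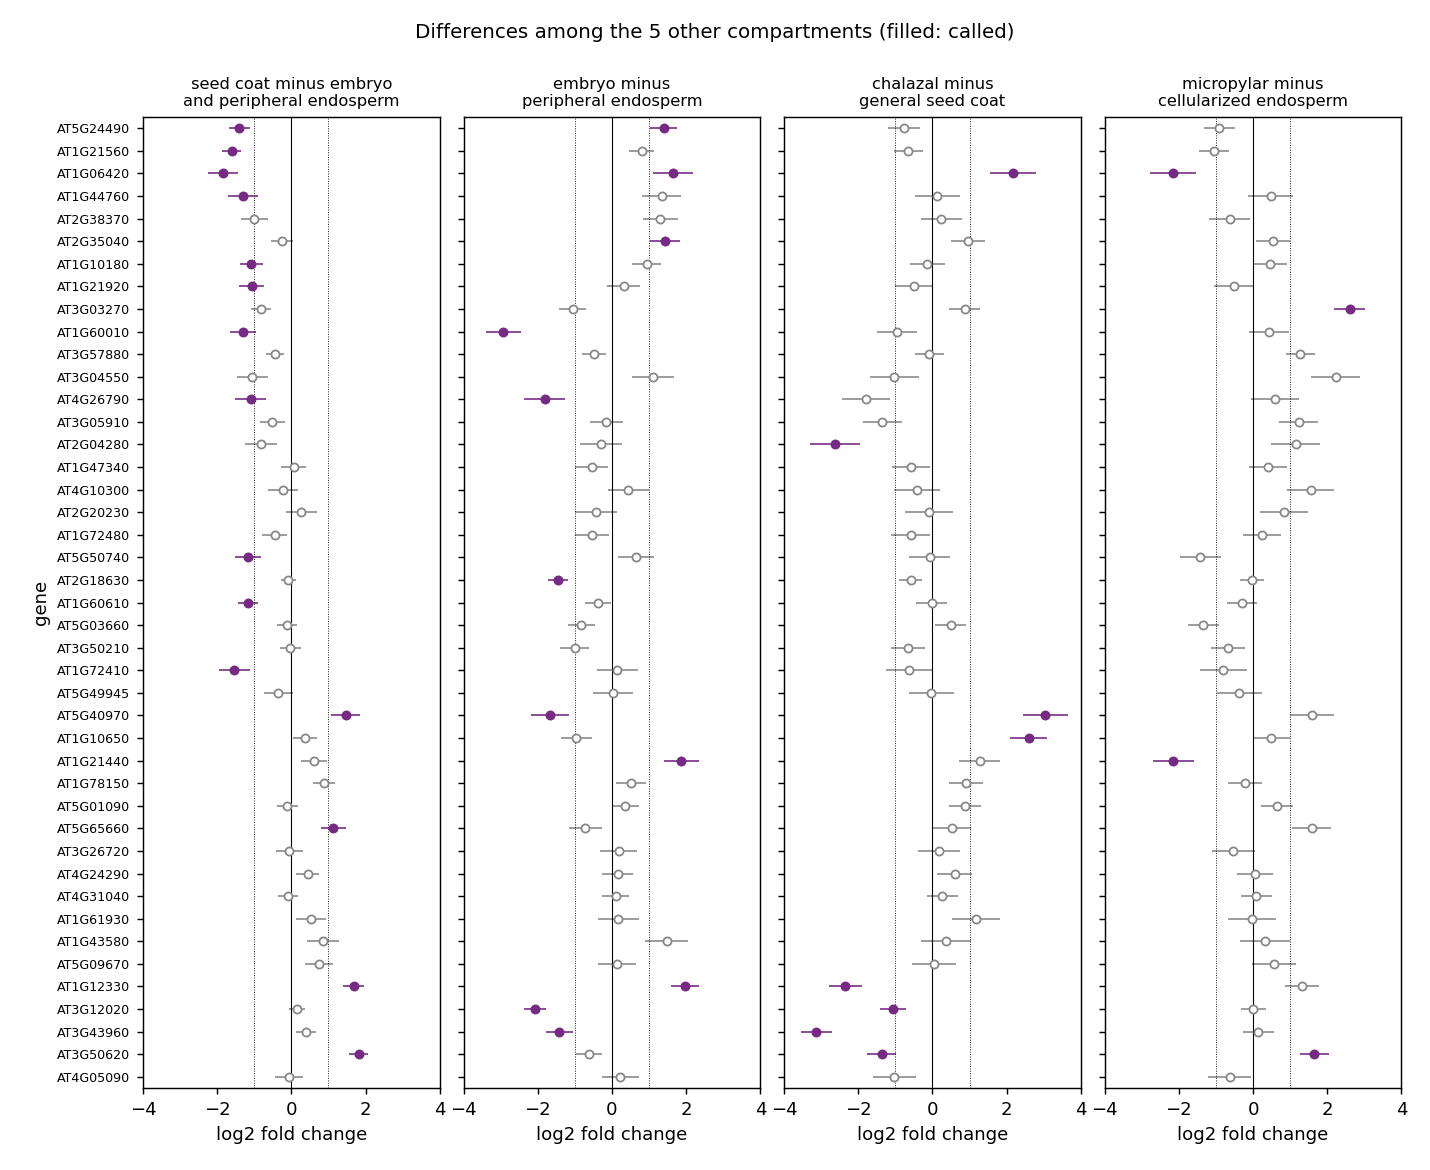
Log2 fold change of each of the 43 genes in the 4 comparisons among the 5 compartments, with bars of 1 SE and dotted lines at 2-fold. Filled points are calls, 15, 11, 8 and 4 from left to right, and rows follow the blocks of the heat map. Calls point both ways in each panel, from -3.13 for AT3G43960 to 3.04 for AT5G40970 between the parts of the seed coat.

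By their locus codes the genes lie on all 5 chromosomes, with 16 on chromosome 1, 5 on chromosome 2, 9 on chromosome 3, 5 on chromosome 4 and 8 on chromosome 5. Chromosome 1 thus held 37.2% of the genes, against 24.0% of the 2056 locus-coded probe sets whose lowest of 5 was at least 300. In the gene order of TAIR10.1, which may not be the version behind the array's annotation, 0 of the 43 genes were direct neighbours. The closest were AT1G72410 and AT1G72480, with 7 protein-coding genes between them, followed by AT1G21440 and AT1G21560 with 12.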

How the data were processed

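The authors deposited linear signal intensity values, 1 for each probe set, for 14 one-colour arrays. Per the submitters' processing notes the software was GCOS, with no version given. The deposited intensity values had a mean of 500 on every array once the lowest and highest 2% of 22810 probe sets were left out. The genome build is not given in the sources used here, and arrays give no counts, so their number limits the precision. The 64 control probe sets were left out. Signals were analysed as log2(value + 16), and 15951 probe sets were tested, those that reached the median of the array on 2 arrays or more. The tool was limma 3.58.1 (R 4.3.3). All 14 arrays entered a model of 7 group means with 7 residual degrees of freedom and a trend on signal, with two-sided p-values adjusted by Benjamini-Hochberg over all probe sets tested. The fit was tested on simulated data.

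The platform's table named 1 gene for 13513 probe sets, several for 503 and none for 8794. Members, comparisons and marker lists were chosen with earlier results of these data known. Genes named are the 12 with the largest ratio, the 10 with the highest lowest-of-5 mean, 3 on each side of each threshold, and up to 5 called in each direction per comparison. A planned grouping by product text and a search of promoters were not made, since the tables used here hold neither. Alternatives changed the pseudocount, filter, scaling, trend, block and arrays.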

Additional observations from a re-analysis of the deposited data

How the results depend on the processing

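Across 23 alternatives the 31 changes named as called kept their direction in all 713 refits and their call in 627, and 14 of the 31 were called in every one. Leaving the chalazal endosperm arrays out of the fit, a pseudocount of 64, the stricter filter of 6 arrays and the replicate block each kept all 31 calls, while 8 ended without the trend, 6 with equal medians and 5 with a pseudocount of 1. Leaving out 1 array at a time gave 11 to 16 calls for the seed coat against embryo and peripheral endosperm, 4 to 14 for embryo against peripheral endosperm, 4 to 8 for chalazal against general seed coat and 1 to 8 for micropylar against cellularized endosperm. Without the trend, calls numbered 7 for the embryo and 2 for the micropylar comparison, and the latter had 8 with a pseudocount of 64 and 8 without the chalazal endosperm arrays. The cause was not tested. With the replicate number as a block the 4 counts were 15, 12, 8 and 4. The replicate deviations of 21 pairs of groups correlated with r from -0.111 to 0.146. Whether same-numbered arrays came from the same plants was not stated, and these correlations cannot settle it.

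The rule found 26 genes with a floor of 64, all among the 43, because that floor asks for a lowest mean of at least 8 times 64. It found 43 with a floor of 1, 30 with equal medians (28 shared), 33 with quantile normalization (30 shared), 52 with means of log2 values (39 shared) and 39 to 60 without 1 array. In whole seeds 38 to 40 genes were at 300 or more under other scalings, and 41 to 42 on a single array.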
